A study of Mus musculus with 12 samples.

Results

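Hist1h1a (ENSMUSG00000049539, chromosome 13) encodes a replication-dependent linker histone, named H1.1 or H1f1 in other nomenclatures. It was chosen by its own measured values, as 1 of 982 genes in the deposited RNA-sequencing table, and its levels are therefore described here without a test. The samples were 12 libraries of 6DT1, a mouse mammary cancer cell line derived from a MMTV-Myc tumor of the FVB/NJ strain. Per the labels, 3 libraries carried a scrambled control guide in a wild type background (sgControl), and 3 libraries each carried sg1, sg2 or sg3 and had the genotype Resf1 KO. Resf1 encodes retroelement silencing factor 1, and per the study's methods each guide was directed at a different region of its largest exon. Per the study's methods the guides against Resf1 were delivered in a lentiviral CRISPR vector with GFP, by which cells were sorted. All lines were labelled as grown in DMEM with 10% FBS and puromycin at 10 ug/ml, although the same labels describe shRNA knockdown in human cells, so it is uncertain whether these conditions hold for the edited 6DT1 lines. RNA was collected 24 hours after dishes were seeded at equal density in triplicate, and libraries were made with a stranded total RNA kit.

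Each edited line was grown from a single cell per the study's methods, so a guide cannot be told apart from the clone that carried it. Whether sgControl was a single clone is not stated in the sources used here. The 3 libraries of a line were dishes of that line, and p-values measure the spread between dishes. Resf1 itself was not analysed here, so the edit could not be checked at the RNA level. The values are normalized, that is, estimated reads of a gene divided by 1 size factor per library, and 1 read was worth between 0.871 and 1.16 in the 12 libraries. The genes of the table held 1917759 to 2781032 estimated reads per library, which is a part of each library and not its depth. The epithelial keratins Krt8, Krt18 and Krt19 were the 3 of 12 mammary epithelial markers in the table, with sgControl means of 6215, 5784 and 494.9, and no marker of fibroblasts, leukocytes or endothelium was among its genes. The table is a selected set of genes, so a marker missing from it may still be expressed. These keratins moved with the lines compared here. All 3 were higher in sg1, with log2 differences of 1.10, 0.80 and 0.33 (adjusted p = 1.57e-11, 3.94e-10 and 0.0183, limma). All 3 were lower in sg3, at -0.22, -0.33 and -1.44 (adjusted p = 0.00324, 4.58e-05 and 3.09e-08, limma), and in sg2 Krt19 was at -0.29 (adjusted p = 0.0483, limma), a call lost with the replicate block, a pseudocount of 0.1 or plain eBayes, or without 1 of 8 libraries (replicates 1 and 3 of sgControl, 1 and 2 of sg1, any of sg2 and 1 of sg3), at -0.33 to -0.21. In sg2 Krt8 and Krt18 were at -0.05 and -0.02 (adjusted p = 0.450 and 0.747, limma), and both passed as lower, at -0.25 and -0.22, with table-total scaling. The Krt19 call in sg1 was lost at 0.18 and 0.12 with median-of-ratios and table-total scaling, and at 0.22 to 0.30 without replicate 2 of sgControl or replicate 1 or 2 of sg1. Their part in the values of other genes was not tested.

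Linker histones bind the nucleosome where DNA enters and leaves it and promote the folding of chromatin into compact fibers. Mammals carry several replication-dependent linker histone genes, which sit in the large histone cluster, are transcribed in S phase and give mRNAs that end in a conserved stem-loop in place of a poly(A) tail. H1.0, encoded by H1f0, is a replication-independent, polyadenylated form that accumulates in differentiated or slowly dividing cells. The proteins overlap in function, and cells that lose 1 of them can keep their chromatin organized with the others.

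The sequence around Hist1h1a carried the features of a replication-dependent histone gene. Its longest annotated transcript (GENCODE release 21 of the mouse annotation, GRCm38) is 741 bases long and ends in the first 15 bases of the histone stem-loop, shown in capitals as the element that replaces the poly(A) tail.
Hist1h1a, transcript end: ccaacGGCTCTTTTCAGAGC
The stem-loop was found in the last 100 bases of 71 of 58797 protein-coding transcripts, or 0.121%, and was not found there in the longest transcripts of the other 5 histone genes of the table. For these 5 genes only the longest transcript was read, so the stem-loop may be in a shorter one. None of the 692 windows of 50 bases along the Hist1h1a transcript was shared with the transcripts of another annotated gene, and its estimated reads lay within 0.05 of a whole number in 11 of 12 libraries. Read sharing with other histone genes was therefore not seen in the annotation used.

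The promoters of both linker histone genes in the table are shown because their levels are compared in the results. The 250 bases before each RefSeq start site were read on the plus strand of GRCm38.p6, at chr13:23763418-23763667 for Hist1h1a and chr15:79027962-79028211 for H1f0. Capitals mark, from left to right in Hist1h1a, a G4 motif (4 runs of at least 3 G with loops of 1 to 7 bases), CCAAT and TATAAA.
Hist1h1a, promoter: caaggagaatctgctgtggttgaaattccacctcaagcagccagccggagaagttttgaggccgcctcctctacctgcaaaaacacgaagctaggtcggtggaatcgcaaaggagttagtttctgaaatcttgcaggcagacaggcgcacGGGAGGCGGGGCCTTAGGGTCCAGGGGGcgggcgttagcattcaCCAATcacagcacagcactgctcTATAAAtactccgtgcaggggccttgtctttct
H1f0, promoter: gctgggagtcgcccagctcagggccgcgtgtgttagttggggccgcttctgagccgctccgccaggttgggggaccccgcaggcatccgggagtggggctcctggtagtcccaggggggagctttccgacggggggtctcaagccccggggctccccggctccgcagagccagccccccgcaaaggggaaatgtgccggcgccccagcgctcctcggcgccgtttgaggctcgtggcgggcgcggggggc
Both strands were searched for these motifs and for AAACACA, and no motif overlapped another in Hist1h1a. The G4 motif spanned bases -100 to -73 from the start, CCAAT lay at -56 to -52 and TATAAA at -33 to -28. Of 32851 RefSeq promoters of this length, 33.8% held CCAAT, 12.4% TATAAA, 6.25% AAACACA and 16.7% a G4 motif. Among 967 promoters of genes in the table the shares were 32.2%, 8.27%, 4.24% and 26.4%. CCAAT was present in the promoters of Hist1h1a, Hist1h1b, Hist1h1c, Hist1h1d, Hist1h1e and Hist1h1t. Among these genes AAACACA was missing from this window of Hist1h1a, and a G4 motif was present in Hist1h1a and Hist1h1t. None of the searched motifs was in this window of H1f0.

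Hist1h1a mRNA was lower in the edited lines than in sgControl, by amounts that differed widely from line to line. The sgControl libraries had normalized values of 940.3, 964.1 and 1000.03, with a mean of 968.1 ± 30.1 (SD, n = 3). In sg1 the values were 398.8, 432.5 and 430.9 (mean 420.7 ± 19.1, SD, n = 3), or 43.5% of the control mean. Every sg1 library lay below every control library, and the lowest control library was 507.7 above the highest sg1 library.

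In sg3 the values were 190.9, 232.9 and 168.8 (mean 197.5 ± 32.6, SD, n = 3), or 20.4% of control. In sg2 they were 19.9, 11.9 and 23.5 (mean 18.4 ± 5.92, SD, n = 3), or 1.91% of control. The order sgControl, sg1, sg3, sg2 thus held in all libraries, and no library of a line overlapped one of its neighbors in that order. The gap was 165.8 between the lowest sg1 and the highest sg3 library, and 145.3 between the lowest sg3 and the highest sg2 library.

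As folds between means, Hist1h1a was 2.30-fold lower than control in sg1, 4.90-fold lower in sg3 and 52.5-fold lower in sg2. The edited lines differed from each other as well, with sg1 2.13-fold above sg3 and 22.8-fold above sg2, and sg3 10.7-fold above sg2. On the scale of log2(value + 1), used for all log2 differences here, the differences from sgControl were -1.20, -2.30 and -5.69 in sg1, sg3 and sg2. Ranked from the largest fall among the 982 genes, these were the 64th, 38th and 3rd. The median gene of the table differed from sgControl by 0.20 in sg1, -0.03 in sg3 and -0.02 in sg2.

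Summed over 3 libraries, Hist1h1a had about 3069 estimated reads in sgControl, 1211 in sg1, 591 in sg3 and 58 in sg2. The 3 sg2 libraries held 19, 12 and 27 reads, so the transcript was detected in each of them, above the limit of 3 reads that a count of 0 allows. The SD of the reads was 57.6 in sgControl, 37.4 in sg1, 40.4 in sg3 and 7.50 in sg2. Counting alone would give 31.99, 20.1, 14.04 and 4.397. These reads are not divided by the size factors, so their SD includes differences in library size. The coefficient of variation was 3.11% in sgControl, 4.53% in sg1, 16.5% in sg3 and 32.1% in sg2.

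**Figure D1:**
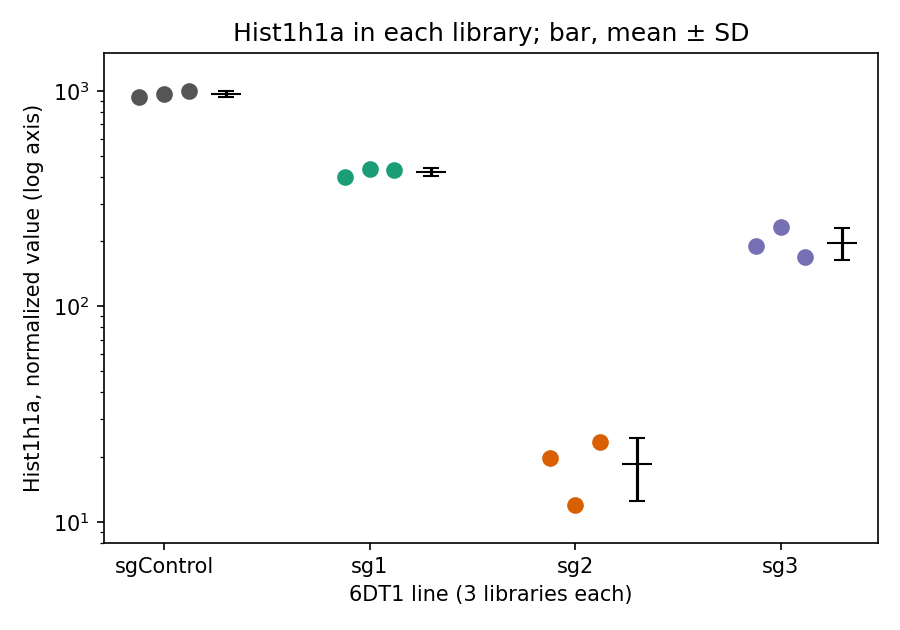
Normalized value of Hist1h1a (log axis) in each of the 12 libraries, by line, with black bars for the mean ± SD of 3 libraries. The sgControl points lie between 940.3 and 1000.03, and the sg1, sg3 and sg2 points form separate, successively lower clusters down to 11.9.

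The plot of Hist1h1a by library shows each point behind these means. The wider scatter of sg2 on its log axis corresponds to a spread of 5.92 in normalized value, the smallest SD of the 4 lines on the linear scale.

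Of the 11 annotated linker histone genes, only Hist1h1a and H1f0 were in the table, and the other linker histone genes were not analysed here. H1f0 did not follow Hist1h1a. Its values were 872.1, 755.7 and 997.8 in sgControl (mean 875.2 ± 121, SD, n = 3) and 2285, 2163 and 2289 in sg1 (mean 2246 ± 71.7, SD, n = 3). All 3 sg1 libraries lay above all control libraries. The mean was 2.57-fold higher in sg1, a log2 difference of 1.37 ± 0.09 (SE, adjusted p = 9.94e-10, limma).

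In sg2, where Hist1h1a was lowest, the H1f0 values were 1091, 908.6 and 922.4 (mean 974.1 ± 102, SD, n = 3), and in sg3 they were 813.1, 981.4 and 893.9 (mean 896.1 ± 84.2, SD, n = 3). Both ranges overlapped that of the control. The log2 differences were 0.16 ± 0.09 in sg2 (SE, adjusted p = 0.146, limma) and 0.04 ± 0.09 in sg3 (SE, adjusted p = 0.732, limma), and both signs turned when the libraries were scaled to their table totals. Without replicate 3 of sgControl the sg2 difference passed the test at 0.26. The estimated reads of H1f0 were whole within 0.05 in 0 of 12 libraries, so its deposited values were fractional throughout. H1f0 differed among the edited lines in a limma F test (adjusted p = 7.69e-10). As background, 89.2% of the table passed the threshold of 0.05 in sg1, 59.7% in sg2, 59.9% in sg3 and 75.3% in the test among the edited lines.

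H1f0 lies on chromosome 15, whose genes in the table were mostly higher in sg1. The 94 genes of the table on that chromosome had a median log2 difference of 0.62 in sg1, against 0.12 for genes elsewhere, and 84 of the 94 were higher. H1f0 had the 6th highest difference among them, and the part of the chromosome in the value of H1f0 was not tested. In sg2 and sg3 the chromosome medians were 0.03 and 0.001.

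Per kilobase of the longest transcript, which allows genes of unequal length to be compared, the balance of both linker histone mRNAs differed by line. In sgControl Hist1h1a stood at 1307 ± 40.6 and H1f0 at 425.9 ± 58.9 (normalized value per kb, SD, n = 3), and Hist1h1a was the higher in each library. The ratio of Hist1h1a to H1f0 was 3.10 ± 0.39 in sgControl, 0.520 ± 0.035 in sg1, 0.611 ± 0.076 in sg3 and 0.0526 ± 0.017 in sg2 (SD, n = 3 each). H1f0 was therefore the higher of both in every edited library. The ratio ranges of the control and sg2 stood clear of all others, while the sg1 range of 0.484 to 0.555 overlapped the sg3 range of 0.524 to 0.658.

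The sum of both levels per kb was 1732 ± 89.8 in sgControl and 1661 ± 30.9 in sg1 (SD, n = 3 each). It was 702.6 ± 77.4 in sg3 and 498.9 ± 52.3 in sg2. The sg1 sum differed from that of the control by less than the SD of the control at this scaling, while the sg3 and sg2 sums, at most 791.9 in any library, lay below the lowest control library at 1669. In rescalings chosen after seeing the data the sg1 sum lay below every control library, at 1542 ± 21.2 against 1790 ± 74.4 with median-of-ratios scaling and 1570 ± 113 against 1899 ± 181 with table-total scaling (SD, n = 3). These sums cover 2 of the 11 annotated genes and are not total linker histone mRNA.

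**Figure D2:**
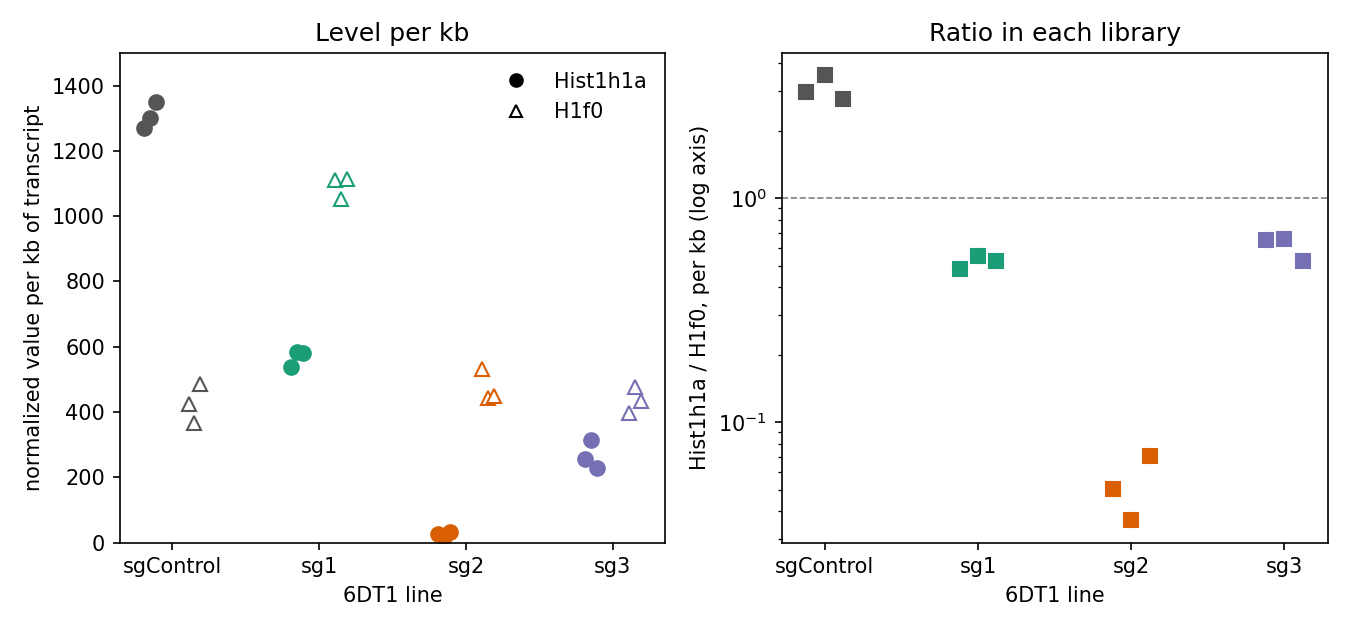
Left, normalized value per kb of transcript for Hist1h1a (filled circles) and H1f0 (open triangles) in each library of the 4 lines. Right, the ratio of Hist1h1a to H1f0 per kb in each library on a log axis, with a dashed line at 1, above which lie only the 3 sgControl libraries at 2.78 to 3.54.

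The plot of both linker histones per kb shows that sg1 and sg3 reached similar ratios at different levels. In sg1 the H1f0 mean was 1093 per kb and the Hist1h1a mean 567.8, and in sg3 they were 436.1 and 266.6.

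Of 70 annotated core histone and variant genes, 4 were in the table, and they moved in both directions. H2afy2 encodes macroH2A2, a variant associated with repressed chromatin. Its values were 92.8, 85.4 and 97.3 in sgControl, 12.6, 37.5 and 17.2 with sg1, 21.1, 10.2 and 17.5 with sg2 and 22.5, 9.02 and 14.2 with sg3. All 9 edited libraries lay below the control libraries, and the 3 edited lines overlapped one another. The log2 differences were -2.13 ± 0.38, -2.48 ± 0.38 and -2.60 ± 0.38 (SE, adjusted p = 6.31e-05, 3.71e-05 and 2.42e-05, limma), and the test among edited lines gave an adjusted p of 0.480. Its estimated reads were whole within 0.05 in 1 of 12 libraries.

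H2afy, which encodes the related macroH2A1, had a mean of 2250 ± 41.4 in sgControl and 1856 ± 53.4 in sg1 (SD, n = 3), with a log2 difference of -0.28 ± 0.05 (SE, adjusted p = 3.26e-05, limma). That sg1 difference was -0.43 and -0.49 with median-of-ratios and table-total scaling. In sg2 and sg3 the differences were -0.07 in each (adjusted p = 0.216 and 0.206, limma), and that of sg2 passed at -0.27 with table-total scaling. Hist1h2bp, a gene of histone H2B on chromosome 13, had means of 371.9 ± 28.8 in sgControl, 333.5 ± 29.5 with sg1, 295.8 ± 34.6 with sg2 and 226.0 ± 5.05 with sg3 (SD, n = 3). It fell in sg2 and sg3 (log2 differences -0.33 and -0.71, adjusted p = 0.00976 and 1.49e-05, limma), with -0.16 in sg1 (adjusted p = 0.139, limma), where it passed at -0.31 and -0.37 with median-of-ratios and table-total scaling. Without replicate 3 of sg2 the sg2 call was lost at -0.25.

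Hist2h3c1, a gene of histone H3 on chromosome 3, moved the other way. Its mean was 148.4 ± 11.7 in sgControl and rose to 287.8 ± 48.9 with sg1, 225.1 ± 25.7 with sg2 and 232.6 ± 31.8 with sg3 (SD, n = 3). The log2 differences were 0.94, 0.59 and 0.64 (adjusted p = 7.41e-06, 0.00154 and 0.000964, limma), and all edited libraries, from 197.9 to 317.5, lay above the highest control library at 160.3. Histone H3 and H2B genes come as near-identical copies, and the estimated reads of Hist2h3c1 and Hist1h2bp were fractional in all 12 libraries, so both values are uncertain. The reads of H1f0 and H2afy were also fractional in all 12 libraries, and those of H2afy2 were whole in 1. The values of these 3 genes are therefore uncertain as well. Over the 5 histone genes other than Hist1h1a, 2 passed as higher and 2 as lower in sg1. In sg2 and in sg3, 1 passed as higher and 2 as lower. These counts are near the shares of the whole table that passed, at 89.2%, 59.7% and 59.9% in sg1, sg2 and sg3. The 5 genes had median log2 differences of -0.16, -0.07 and -0.07, against 0.20, -0.02 and -0.03 for all genes of the table.

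Factors that make or bind histone mRNA and linker histones were sparsely represented. Of 29 annotated factors of histone transcription and 3' end processing, the table held Coil, which encodes coilin, the scaffold protein of Cajal bodies. Coil had means of 267.3 ± 19.99 in sgControl, 199.8 ± 27.5 with sg1, 223.2 ± 10.7 with sg2 and 221.4 ± 9.53 with sg3 (SD, n = 3), and all edited libraries lay below the control libraries. The log2 differences were -0.42, -0.26 and -0.27 (adjusted p = 0.00159, 0.0492 and 0.0414, limma). With table-total scaling they were -0.64 in sg1 and -0.46 in sg2. The sg3 call was lost without replicate 2 or 3 of sgControl or any 1 library of sg3, and the sg2 call was lost without these sgControl libraries, replicate 1 of sg1 or any 1 library of sg2 or sg3, with log2 differences of -0.30 to -0.22 in sg3 and -0.29 to -0.21 in sg2. The sg2 call was also lost when genes with a mean under 50 were left out.

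Of 38 annotated partners and chaperones of linker histones, the table held 3, which passed the test in sg1 and in neither of the other edited lines. Cbx5, the gene of heterochromatin protein HP1 alpha, had means of 10267 ± 2.43 in sgControl and 15830 ± 250.1 in sg1 (SD, n = 3), with a log2 difference of 0.62 ± 0.04 (SE, adjusted p = 1.24e-09, limma). Cbx5 lies on chromosome 15, whose genes in the table also had a median difference of 0.62 in sg1. In sg2 and sg3 its differences were -0.01 and 0.04 (adjusted p = 0.897 and 0.482, limma), and the sg3 sign turned with table-total scaling.

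Parp1, whose product poly(ADP-ribose) polymerase 1 competes with linker histones for nucleosomes, fell by 0.32 on the log2 scale in sg1 (adjusted p = 4.53e-05, limma), with -0.09 in sg2 and -0.08 in sg3. Set, which encodes a histone chaperone and inhibitor of histone acetylation, fell by 0.25 in sg1 (adjusted p = 7.11e-05, limma), with -0.06 in sg2 and in sg3. The sg1 difference of Set was -0.40 and -0.46 with median-of-ratios and table-total scaling, and that of Parp1 was -0.53 with table-total scaling. In the test among edited lines the adjusted p was 5.25e-10 for Cbx5, 0.000946 for Parp1 and 0.00121 for Set (limma). With table-total scaling, which moved the median gene of sg2 by -0.20, all 3 passed in sg2 as lower, at -0.21 for Cbx5, -0.29 for Parp1 and -0.27 for Set, and Parp1 also passed at -0.13 with median-of-ratios scaling. The sg1 calls of H2afy, Parp1 and Set were not kept in a test against a 1.2-fold change, which was added after seeing the data. None of the 28 annotated genes of heterochromatin silencing, such as H3K9 methyltransferases and DNA methyltransferases, was in the table.

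**Figure D3:**
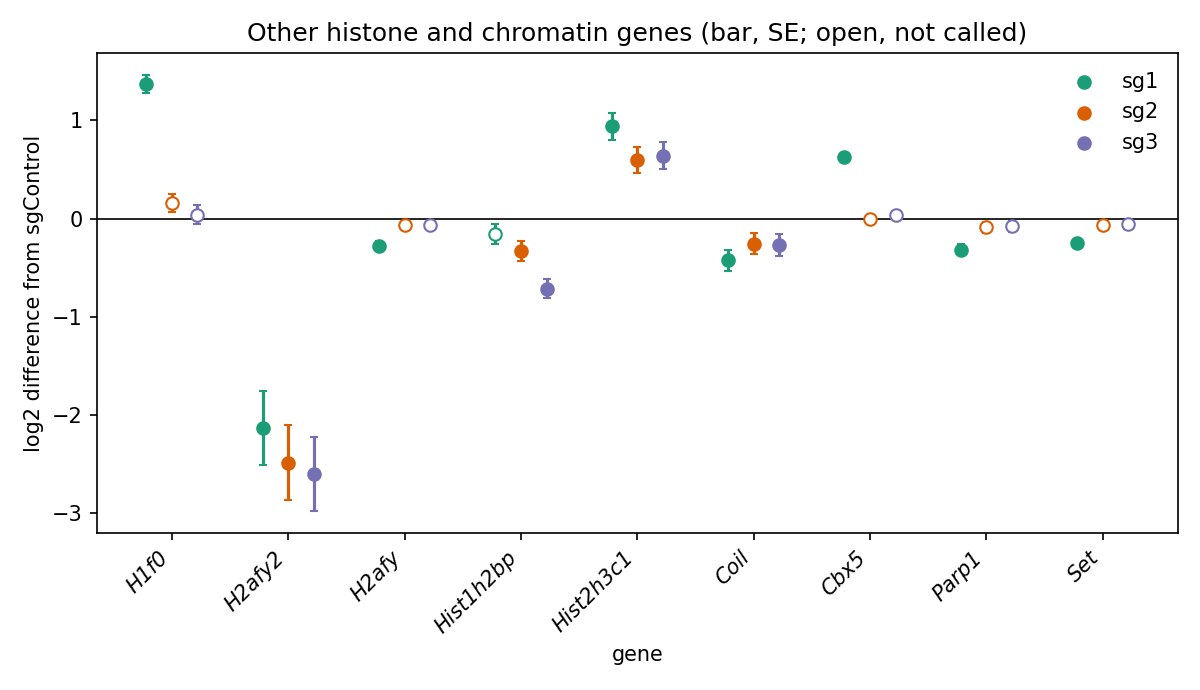
Log2 difference from sgControl (log2 of value + 1) for 9 histone and chromatin genes in sg1, sg2 and sg3, with SE bars from the limma fit. Filled points passed an adjusted p of 0.05 and open points did not, and H2afy2 lies near -2.13 to -2.60 in each line while H1f0 and Cbx5 are raised in sg1.

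The plot of histone and chromatin genes sets the differences of each line side by side. These values share the sgControl libraries, so the comparisons of the 3 lines are not independent of each other.

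Because Hist1h1a is transcribed in S phase, lists of replication and mitosis genes were read beside it. Of 68 annotated S phase genes the table held 3, and of 54 mitosis genes it held 2, named after their values were seen. Pold2, a subunit of DNA polymerase delta, fell in sg1 and sg3 (log2 differences -0.32 and -0.27, adjusted p = 0.00102 and 0.00653, limma), with -0.17 in sg2 (adjusted p = 0.0662, limma), which passed with the replicate number as a block, at -0.21 and -0.37 with median-of-ratios and table-total scaling, and without replicate 1 of sg1 or, at -0.22, replicate 2 of sg2. Ung, a uracil DNA glycosylase, fell by 0.41 in sg1 and 0.29 in sg3 (adjusted p = 0.0006 and 0.0152, limma), with -0.13 in sg2, and its sg3 call was lost without replicate 1 of sg3 at -0.21. In sg2 the Ung difference passed at -0.33 with table-total scaling, which moved the median gene of sg2 by -0.20.

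Atad2, a chromatin ATPase on chromosome 15, rose by 0.65 in sg1 (adjusted p = 0.000153, limma), with 0.05 in sg2 and 0.18 in sg3. The sg2 sign turned with table-total scaling, and the sg3 difference passed with the replicate number as a block and, at 0.30, without replicate 2 of sg3. Psrc1, a spindle protein, fell by 3.07 in sg3 (adjusted p = 2.82e-08, limma; -1.81 with a pseudocount of 10), with means of 38.4 ± 4.69 in sgControl and 3.75 ± 0.963 in sg3 (SD, n = 3). Its log2 difference was 0.63 in sg2 (adjusted p = 0.0460, limma), a call lost without any 1 library other than replicate 2 of sg2 or a library of sg3, at 0.47 to 0.71, and also lost at 0.59 and 0.43 with median-of-ratios and table-total scaling and at 0.64 with a pseudocount of 0.1. In sg1 it was 0.05, with a sign that turned under either rescaling. The remaining mitosis gene was Cbx5.

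The genomic neighborhood of Hist1h1a was poorly covered by the table. None of the 16 annotated genes nearest to Hist1h1a was in the table, and 40 of its genes lay on chromosome 13, where 6 linker histone genes are annotated. The nearest table genes on the side of lower coordinates were Hist1h2bp, Rala and Gm47882, 174, 290 and 359 annotated genes away. On the other side they were Foxc1, F13a1 and Gcnt2, 142, 270 and 355 genes away. These distances are a count of genes and not of bases.

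Foxc1, a forkhead transcription factor, was lower in each edited line, with means of 1383 ± 90.6 in sgControl, 1169 ± 55.8 with sg1, 1155 ± 4.72 with sg2 and 1192 ± 34.8 with sg3 (SD, n = 3). Its log2 differences were -0.24, -0.26 and -0.21 (adjusted p = 0.0012, 0.00162 and 0.00645, limma). The sg1 difference was -0.40 and -0.45 with median-of-ratios and table-total scaling, and that of sg2 was -0.46 with table-total scaling. The other neighbors did not share 1 direction. Rala, a small GTPase, rose by 0.35 in sg1 (adjusted p = 7.03e-05, limma), with 0.08 in sg2 and 0.10 in sg3, and with table-total scaling both of the latter signs turned and the sg1 call was lost at 0.14. The sg3 difference of Rala passed without replicate 2 of sg3 at 0.15.

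Gcnt2, a glycosyltransferase of I-branching, rose by 0.71 in sg1 and 0.29 in sg2 (adjusted p = 1.11e-06 and 0.0101, limma), with 0.15 in sg3. The sg2 call of Gcnt2 was lost without replicate 1 of sgControl or replicate 3 of sg2, at 0.22 in each case, and at 0.08 with table-total scaling, and its sg3 difference passed without replicate 2 of sgControl at 0.26. Gm47882 fell by 0.28 in sg1 and 0.23 in sg3 (adjusted p = 0.00207 and 0.0170, limma), with -0.14 in sg2, which passed at -0.18 and -0.34 with median-of-ratios and table-total scaling, and its sg3 call was lost without replicate 1 of sg3 at -0.16. F13a1, which encodes a subunit of coagulation factor XIII, had low values, with means of 21.7 ± 10.2 in sgControl, 7.25 ± 1.29 with sg1, 9.82 ± 2.45 with sg2 and 9.59 ± 2.87 with sg3 (SD, n = 3). It fell by 1.34 in sg1 (adjusted p = 0.00568, limma; -0.82 with a pseudocount of 10), and its differences of -0.97 in sg2 and -1.01 in sg3 were near the threshold (adjusted p = 0.0512 and 0.0434, limma). The F13a1 call in sg3 was lost without replicate 1 or 3 of sgControl, 2 or 3 of sg2, or 2 or 3 of sg3, at -1.01 to -0.75, and in sg2 a call was gained without replicate 2 of sgControl, at -1.43, or replicate 1 of sg3, at -0.97. The sg2 difference of F13a1 also passed at -1.01 and -1.15 with median-of-ratios and table-total scaling, at -0.63 with a pseudocount of 10 and with plain eBayes, and its sg3 call was lost at -1.07 with a pseudocount of 0.1 and kept at -0.65 with one of 10.

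Profiles across libraries were compared with Pearson's r of log2(value + 1) over the 12 libraries, as a description, since libraries share lines and size factors. Among 981 other genes, r with Hist1h1a was above 0.9 for 20 and below -0.9 for 6, with a median of 0.06. The 8 genes with the highest r were Gm14230 (0.98), Nr2f1 (0.96), Kctd17, Stc1, Chchd10 and 1190002N15Rik (0.95 each), and Sec24c and Tmem176a (0.94 each). The 9th was Dennd2a at 0.93. Computed over the 4 line means in place of the 12 libraries, 3 of these 8 genes stayed among the highest 8.

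The genes differed from Hist1h1a in the size of their changes. Gm14230 had means of 781.2 ± 57.6 in sgControl, 590.7 ± 9.29 in sg1, 488.7 ± 40.1 in sg3 and 289.3 ± 17.4 in sg2 (SD, n = 3), with the lines in the order of Hist1h1a and no overlap of libraries. Stc1, which encodes the secreted glycoprotein stanniocalcin 1, was not lower than control in sg1, with means of 208.6 ± 57.1 in sgControl, 291.7 ± 31.3 in sg1, 41.3 ± 1.34 in sg3 and 3.88 ± 0.357 in sg2. Kctd17, an adaptor of a cullin-3 ubiquitin ligase, had 894.2 ± 38.6 in sgControl, 871.6 ± 77.9 in sg1, 389.2 ± 41.7 in sg3 and 0.871 to 2.99 in the sg2 libraries, which is at or under the limit of 3 reads.

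Chchd10, a mitochondrial protein, stood at 168.8 ± 4.95 in sgControl, 135.9 ± 10.8 in sg1, 118.2 ± 23.3 in sg3 and 5.13 ± 0.902 in sg2 (SD, n = 3). Tmem176a, a membrane protein, had 40.5 ± 7.99 in sgControl, 50.3 ± 5.34 in sg1, 20.01 ± 3.87 in sg3 and 5.38 ± 1.44 in sg2. In the orphan nuclear receptor gene Nr2f1, in 1190002N15Rik and in Sec24c, a COPII coat subunit, the sg2 log2 differences were smaller, at -0.62, -0.53 and -0.90. All 8 genes, picked for their likeness to a profile lowest in sg2, had their lowest mean in sg2 and the next lowest in sg3, whereas in sg1 the log2 difference was above 0 for Stc1 and Tmem176a and between -0.03 and -0.06 for Nr2f1, Kctd17, 1190002N15Rik and Sec24c.

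The 4 genes with the lowest r ran in the opposite direction. They were Pogk (-0.98), a KRAB-domain gene derived from a transposase, Ttc28 (-0.95), Itgav (-0.94), the integrin alpha V subunit, and St8sia1 (-0.92), the ganglioside GD3 synthase. Pogk had means of 425.9 ± 23.3 in sgControl, 489.3 ± 33.7 in sg1, 526.3 ± 12.5 in sg3 and 965.1 ± 3.62 in sg2 (SD, n = 3). The 3 sg2 libraries of Pogk, at 961.1 to 968.1, lay far above all others.

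**Figure D4:**
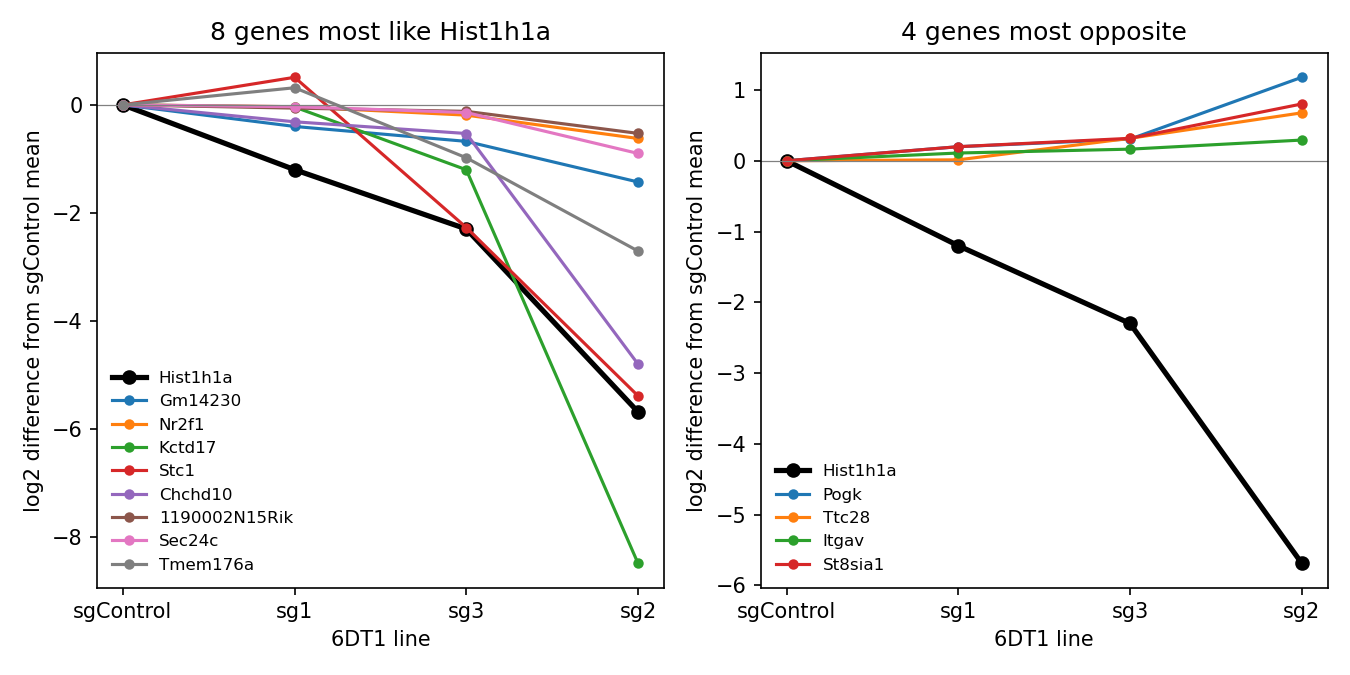
Log2 difference of each line mean from the sgControl mean (log2 of value + 1) for Hist1h1a (black) with the 8 genes of highest r (left) and the 4 of lowest r (right). Lines are ordered sgControl, sg1, sg3, sg2 and joined per gene, and the left panel shows sg2 lowest for every gene while sg1 is above control for Stc1 and Tmem176a.

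The plot of likest profiles places the separate sg1 step of Hist1h1a beside genes that mostly lack it. A complete separation of the 4 lines, with no overlap of libraries between neighbors, was found for 93 genes of the table, in 22 of the 24 possible orders with at most 14 genes in 1 order. The order of Hist1h1a was shared by Gm14230, Osbpl7 and Skp2, of which the last 2 were named after their values were seen. Skp2, a ubiquitin ligase subunit that targets the cell cycle inhibitor p27, spanned a narrow range, with means of 1664 ± 87.2 in sgControl, 1522 ± 22.7 in sg1, 1419 ± 30.9 in sg3 and 1306 ± 20.5 in sg2 (SD, n = 3). Osbpl7, an oxysterol-binding protein, had 156.9 ± 20.2, 118.5 ± 0.476, 24.4 ± 7.76 and 11.03 ± 4.38 in the same order of lines.

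Across the table, all sg2 libraries were lowest for 67 genes, or 6.82%, and all edited libraries lay below all control libraries for 158 genes. Hist1h1a belonged to both sets. Relative to other scalings of the libraries, the median gene moved by -0.15 in sg1 with median-of-ratios scaling and by -0.21, -0.20 and -0.10 in sg1, sg2 and sg3 with table-total scaling. These shifts are small beside the log2 differences of -1.20, -5.69 and -2.30 of Hist1h1a.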

How the data were processed

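RNA sequencing was analysed in 12 libraries of 6DT1 cells, 4 lines of 3. The deposited values are a normalized signal per gene, which the authors made from estimated reads divided by 1 size factor per library; the submitters' processing notes name Partek, STAR 2.7.8a and DESeq2. Which mouse build, annotation and counter were used is not given in the sources used here. A size factor moves all genes of a library together, and shared reads can move between gene copies. The table held 982 genes, most of which differed between lines, so calls are relative to a selected table and no low-value filter was applied. Log2(value + 1) was fitted with limma 3.58.1 in R 4.3.3 (4 groups, trend and robust eBayes, Benjamini-Hochberg over 982 genes, threshold 0.05, two-sided), because fractional values do not suit a count test, and the script was tested on simulated data. The value of 1 read was taken from the spacing of low values, 79.5% to 84.3% of which were whole within 0.05 reads. Gene names and order came from GENCODE release 21 (972 genes matched), and promoters from RefSeq GRCm38.p6 (944 genes matched, 713 with a promoter). Named genes were all table members of the histone, histone mRNA and linker partner lists, members of the other lists called in 1 direction in all 3 lines, the 8 highest and 4 lowest r, and up to 3 neighbors a side; the cell type markers in the table are named as well, and others are marked where named. The gene and the lists were chosen with earlier results of these data known. Alternatives were other scalings, pseudocounts, a mean filter, a replicate block, plain eBayes and leaving out each library; a test against 1.2-fold and rescaled linker histone sums were added after seeing the data. Deviations from the line means correlated above 0.1 in 11 of 18 same-numbered pairs of libraries and 3 of 36 others. Between sgControl and sg1 the same-numbered correlations were 0.199 to 0.238, between sgControl and sg2 they were 0.122 to 0.165, and against sg3 they were -0.0786 to -0.00383. The reported fit has no block, and the blocked fit is an alternative. Intervals and limits on reads cover counting error only.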

Additional observations from a re-analysis of the deposited data

Results flagged for a closer look

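Of 21 genes set beside Hist1h1a, 14, or 66.7%, differed among the 3 edited lines in a limma F test on 12 libraries, a share below the 75.3% of the whole table. The adjusted p was 7.69e-10 for H1f0, 5.25e-10 for Cbx5 and 0.000775 for Atad2, which were highest in sg1 and lie on chromosome 15. It was 0.00054 for H2afy, 0.000946 for Parp1 and 0.00121 for Set, which were lowest in sg1. For Hist1h2bp it was 0.000239, with the lowest mean in sg3, and for Psrc1 it was 1.05e-09, with the fall in sg3. Ung gave 0.0337, Rala 0.0014 and Gcnt2 4.5e-05, the last 2 with the highest means in sg1. The keratins gave 5.48e-13 for Krt8, 4.06e-12 for Krt18 and 1.92e-09 for Krt19, each highest in sg1 and lowest in sg3. Each edited line was 1 clone, so the guide and the clone cannot be told apart in these differences.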

How the results depend on the processing

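Hist1h1a kept its direction in each line under the other scalings, pseudocounts and mean filter and without any 1 library. Its sg1 log2 difference moved to -1.36 with median-of-ratios scaling and -1.41 with table-total scaling, and its sg2 difference to -5.13 with a pseudocount of 10. Leaving out 1 library, sg1 ranged from -1.22 to -1.16, sg2 from -5.88 to -5.42 and sg3 from -2.42 to -2.19. Genes called stayed within 1.5 times the reported counts of 876, 586, 588 and 739, except with the added test against 1.2-fold, which called 511 in sg1, 221 in sg2 and 195 in sg3. Leaving out 1 library gave 818 to 889, 454 to 612 and 452 to 622 calls, and 686 to 745 among the edited lines. With table-total scaling the share of called genes that were higher was 45.7%, 21.9% and 27.4% in sg1, sg2 and sg3, against 56.2%, 50.7% and 44.2%. Of the 8 genes most like Hist1h1a, 6 to 8 were kept without 1 library and 3 with the 4 line means.

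With the replicate block the calls were 893, 671 and 661 in sg1, sg2 and sg3 and 775 among the edited lines; of the named differences it added the calls of Pold2 in sg2 and Atad2 in sg3, ended that of Krt19 in sg2 and changed no other. Of 63 differences of 21 named genes, 40 were called, 0 of these turned and 10 held under every alternative; 5 more held wherever a value could be had, since the mean filter removed H2afy2, Psrc1 and F13a1. Of the uncalled, 15 passed somewhere and 9 changed sign. Rescaling moved 17 of the called differences by over 1.5 times, as it moved the median gene. In sg1 they were those of H2afy, Coil, Cbx5, Parp1, Set, Pold2, Ung, Gm47882, Rala, Foxc1 and Krt19. In sg2 they were those of Hist1h2bp, Hist2h3c1, Coil, Foxc1, Gcnt2 and Krt19. With table-total scaling the sg1 differences were 0.41 for Cbx5, -0.53 for Pold2, -0.62 for Ung and -0.49 for Gm47882. Those of sg2 were -0.54 for Hist1h2bp, 0.39 for Hist2h3c1 and -0.50 for Krt19. Reversed signs with table-total scaling were -0.0448 for H1f0 in sg2 and -0.0632 in sg3, -0.067 for Cbx5 in sg3, -0.158 for Atad2 in sg2, -0.162 for Psrc1 in sg1, and -0.119 for Rala in sg2 and -0.00101 in sg3. Psrc1 was -0.105 in sg1 with median-of-ratios scaling. Without 1 library, H1f0 in sg3 ran from -0.0622 to 0.138, Cbx5 in sg2 from -0.0294 to 0.0166, Atad2 in sg2 from -0.0462 to 0.147, Psrc1 in sg1 from -0.0572 to 0.122 and Krt18 in sg2 from -0.0336 to 1.24e-05. The test against 1.2-fold also ended the calls of Coil and Foxc1 in all 3 edited lines, of Pold2, Ung and Gm47882 in sg1 and sg3, of Rala and Krt19 in sg1, and of Krt8 and Krt18 in sg3. It ended those of Hist1h2bp, Hist2h3c1, Gcnt2, Psrc1 and Krt19 in sg2 and of F13a1 in sg3. The cause of these changes was not tested.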
